A study of Mus musculus with 6 samples.

Results

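The BCL2 family genes decide at the mitochondrion whether a T cell survives or dies. The 10 described here were chosen by name: the pro-survival genes Bcl2, Bcl2l1 and Mcl1, the effector genes Bax and Bak1, and the BH3-only genes Bcl2l11, Bbc3, Pmaip1, Bid and Bad. All 10 had a row among the 21139 genes of the deposited table, and all 10 passed the filter on low counts. RNA was measured in 6 libraries of CD4+ T cells from the spleen of C57BL/6J mice. All cells had been stimulated for 2 days with antibodies to CD3 and to CD28, which stand in for antigen and co-stimulation. The groups were 3 libraries of cells kept in medium alone and 3 of cells given CpdA, an agonist of Gpr120, at a labelled dose of 20 whose unit is read here as µM. Gpr120 is a receptor for long-chain fatty acids, and the series asks how its agonist alters gene expression. The sources used here do not state the age of the mice, any engineered allele, the vehicle or the purity of the cells. No label ties the libraries of a group to separate cultures or animals, so the p-values measure the spread between these libraries, which may be technical.

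With CpdA, the BH3-only gene Bcl2l11 fell by 24.8%, from a mean of 10.9 to 8.20 FPKM (counts scaled to gene length and library total), and no other member changed as much. The pro-survival genes Mcl1 and Bcl2 fell by 6.5% and 5.6%, whereas the effector gene Bax rose by 8.5% and the BH3-only gene Bid by 16.2%. Thus 5 of 10 members were called, 2 higher and 3 lower, at an adjusted p under 0.05 in edgeR's quasi-likelihood test with Benjamini-Hochberg adjustment over all 13507 genes tested. Over all those genes 33.2% were called, 16.5% higher and 16.7% lower. The median log2 fold change was 0.07 for the members and 0.00 for all genes tested. The count was 2 without medium replicate 3, 3 without CpdA replicate 1 and 3 without CpdA replicate 3, and it was 3 with DESeq2.

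The libraries held 20247761 to 25952169 counts. Library pairs of 1 group gave chi-square values of 2.13 to 3.95 times their degrees of freedom, a wider spread than counting error alone gives. These values cannot tell whether separate libraries came from the same RNA or culture. Nor can they tell whether a library was sequenced again in another run, since differences between runs also widen the spread. The 8 markers of the CD4 T cell list summed to 2408 to 2460 CPM (counts scaled to library total) in medium and to 2316 to 2371 CPM with CpdA. Most of them are genes of T cells in general, so their sum shows T cells rather than CD4 T cells in particular. Of these 8 markers, 1 was higher and 6 were lower. Markers of B cells summed to 22.2 to 28.2 CPM, and those of CD8 T cells to 7.33 to 9.40 CPM. Of the 4 B cell markers tested, 1 was called higher and 0 lower. Markers of NK cells, neutrophils, erythroid cells and platelets summed to between 0.317 and 6.52 CPM over both groups. Only 1 of the 4 neutrophil markers was in the table. Dendritic cell markers summed to 5.99 to 6.39 CPM in medium and to 6.74 to 8.08 CPM with CpdA, without overlap. Of the 3 dendritic cell markers tested, 0 were called. The 4 macrophage and monocyte markers in the table summed to 5.16 to 6.17 CPM in medium and to 4.32 to 4.48 CPM with CpdA, and both of the markers tested fell. Adgre1, S100a8, S100a9, Mpo and Ppbp were not among the rows of the table. The lowest exact permutation p over the 9 lists was 0.1 (two-sided, 0.3 after adjustment), the smallest that 3 libraries against 3 allow. The part of these marker differences in the results below was not tested.

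As background, BAX and BAK, the products of Bax and Bak1, can form pores in the outer mitochondrial membrane that release cytochrome c and start the caspase cascade. BCL2, BCL-XL (from Bcl2l1) and MCL1 hold them in check, and the BH3-only proteins are the sensors that bind the pro-survival proteins or activate the effectors. In T cells BIM, the product of Bcl2l11, is known for deleting self-reactive thymocytes and for ending responses when cytokines run out, while BCL-XL is induced by CD28 and MCL1 is needed throughout T cell life.

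What these proteins share is the BH3 motif, by which its proteins bind one another, and its codons are shown because they tie the 3 roles together. The pattern searched was a leucine, any 3 residues, then a glycine, alanine or serine and an aspartate, in the translation of the principal GENCODE M21 transcript. Pmaip1 was not searched, and its sequence is not used here. Each of the 9 members searched held the pattern exactly 1 time. The pattern describes the motif of this family, so a match in its members was fixed in advance. It is not particular to the family: of the 21870 principal proteins of the annotation, 23.1% held it exactly 1 time and 33.4% at least 1 time. The 9 codons from the leucine on are given 5′ to 3′ on the coding strand, each within a coding exon, with positions in GRCm38. Capitals mark the codons of the leucine, of the small residue and of the aspartate.
Bcl2: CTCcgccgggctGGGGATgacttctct at chr1:106712575-106712601, minus strand
Bcl2l1: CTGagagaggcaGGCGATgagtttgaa at chr2:152829697-152829723, minus strand
Mcl1: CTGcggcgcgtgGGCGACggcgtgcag at chr3:95659436-95659462, plus strand
Bax: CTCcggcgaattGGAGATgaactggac at chr7:45465997-45466023, minus strand
Bak1: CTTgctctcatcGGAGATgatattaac at chr17:27022531-27022557, minus strand
Bcl2l11: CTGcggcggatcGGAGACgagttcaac at chr2:128147150-128147176, plus strand
Bbc3: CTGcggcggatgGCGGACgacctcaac at chr7:16313773-16313799, plus strand
Bid: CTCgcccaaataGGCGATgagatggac at chr6:120897289-120897315, minus strand
Bad: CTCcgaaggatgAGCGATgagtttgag at chr19:6950792-6950818, plus strand
Against the 27 bases of Bcl2l11, Bbc3 was identical at 22 and Bax at 19. The other 6 were identical at 15 to 17. Counts are per gene, so isoforms with and without this motif cannot be told apart in any value below.

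On the FPKM scale, which corrects for gene length, the BH3-only genes lay below all others in both groups. In medium the mean levels were 125.3 FPKM for Mcl1, 113.2 for Bax, 77.7 for Bcl2l1, 46.6 for Bcl2 and 29.4 for Bak1. Among the BH3-only genes they were 10.9 FPKM for Bcl2l11, 9.33 for Bbc3, 8.81 for Bad, 6.58 for Bid and 5.41 for Pmaip1. In that order the 3 libraries of Bbc3 overlapped those of Bad and those of Bid overlapped those of Pmaip1, and the libraries of every other neighbouring pair were apart. With CpdA, Bax (122.8 FPKM) stood above Mcl1 (117.1 FPKM), again without overlap. Bcl2l11 moved from the first to the third place among the BH3-only genes, at 8.20 FPKM below Bad (9.90) and Bbc3 (9.65). Its libraries then overlapped those of Bid (7.64 FPKM), and Bad overlapped Bbc3.

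**Figure D1:**
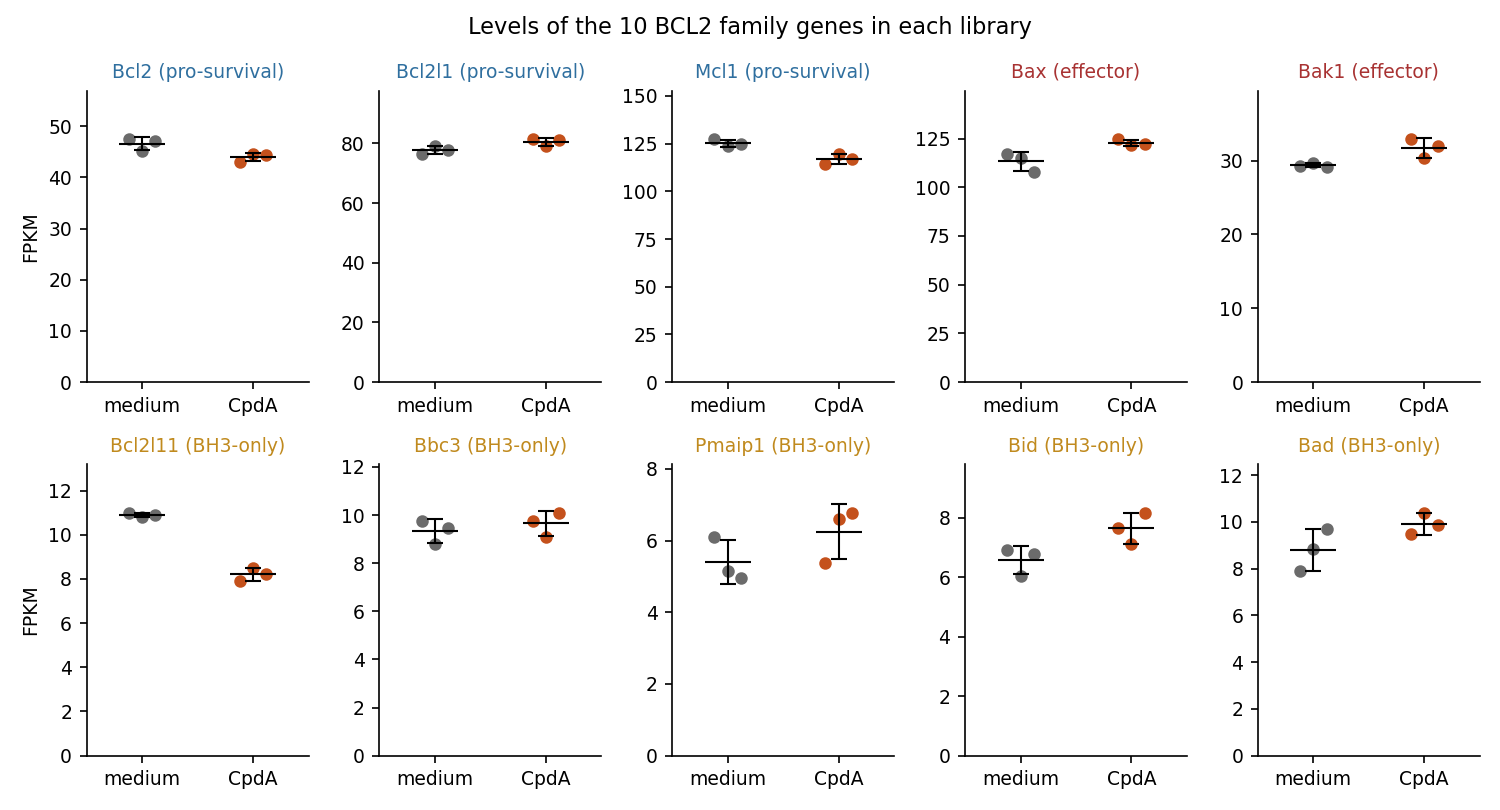
FPKM (y axis, from 0) of each member in the 3 medium and 3 CpdA libraries (x axis); points are libraries, the wide bar is the mean and the whiskers are 1 SD (n = 3). The CpdA libraries lie below all medium libraries for Bcl2, Mcl1 and Bcl2l11 and above them for Bax, Bak1 and Bid.

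Levels in medium and with CpdA did not overlap for 6 of the 10 members, 3 above and 3 below, as the plot of levels by library shows. Over all genes tested 43.9% did not overlap, 22.9% above and 21% below. In bulk RNA, fewer cells that express a gene and less of its RNA per cell cannot be told apart.

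Of the 3 pro-survival members, 2 fell and 0 rose. Mcl1 (chromosome 3, 95658721 to 95663176, plus strand) codes for a short-lived guardian of the mitochondrion. Its level was 127.4, 123.8 and 124.6 FPKM in medium and 114.5, 119.8 and 117.0 FPKM with CpdA. All 3 CpdA libraries were lower than every medium library, with a log2 fold change of -0.11 ± 0.03 (SE, n = 3 per group, adjusted p = 0.00323, edgeR). Bcl2 (chromosome 1, 106538178 to 106714274, minus strand), the founding member of the family, had 47.5, 45.1 and 47.2 FPKM in medium. With CpdA it had 43.0, 44.5 and 44.4 FPKM, again with no overlap between the groups. The log2 fold change of Bcl2 was -0.09 ± 0.03 (SE, adjusted p = 0.0142, edgeR). The call of Bcl2 was lost without medium replicate 1 (adjusted p = 0.079), without medium replicate 3 (0.0931) or without CpdA replicate 1 (0.0801).

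Bcl2l1 (chromosome 2, 152780668 to 152831728, minus strand) was the pro-survival member with no call. Its level was 76.3, 79.0 and 77.8 FPKM in medium and 81.4, 79.0 and 81.0 FPKM with CpdA, so the groups overlapped. The log2 fold change was 0.04 with a 95% confidence interval of -0.02 to 0.10 (adjusted p = 0.347, edgeR).

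Of the 2 effector members, 1 rose and 0 fell, and both had all CpdA libraries above all medium libraries. Bax (chromosome 7, 45461695 to 45466898, minus strand) codes for the effector that moves from the cytosol to mitochondria. It had 117.0, 115.1 and 107.6 FPKM in medium and 124.7, 121.7 and 122.1 FPKM with CpdA. The log2 fold change was 0.11 ± 0.04 (SE, adjusted p = 0.0271, edgeR). Medium replicate 3 was the lowest library of Bax, and without it the log2 fold change was 0.08 (adjusted p = 0.225). The call was also lost without CpdA replicate 1 (adjusted p = 0.0771), without CpdA replicate 3 (0.0526) and with DESeq2 (0.053). Bax overlaps a coding gene on its own strand, Gm45808, over 915 bases, and Gm45808 was not analysed here.

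Bak1 (chromosome 17, 27019810 to 27029009, minus strand) codes for the effector that resides in the mitochondrial membrane. Its level was 29.3, 29.7 and 29.1 FPKM in medium and 32.9, 30.3 and 31.9 FPKM with CpdA, with the medium libraries close together and CpdA replicate 2 nearest to them. The log2 fold change was 0.10 with a 95% confidence interval of 0.01 to 0.19, and it missed the threshold after adjustment (adjusted p = 0.0733, edgeR). It passed with scaling by library totals only (adjusted p = 0.0489) and without CpdA replicate 2 (0.0274). Bak1 lies whole within Ggnbp1 on the opposite strand, which had 42 to 83 counts per library against 1415 to 1917 for Bak1. Whether the counting used strand is not stated in the sources used here.

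**Figure D2:**
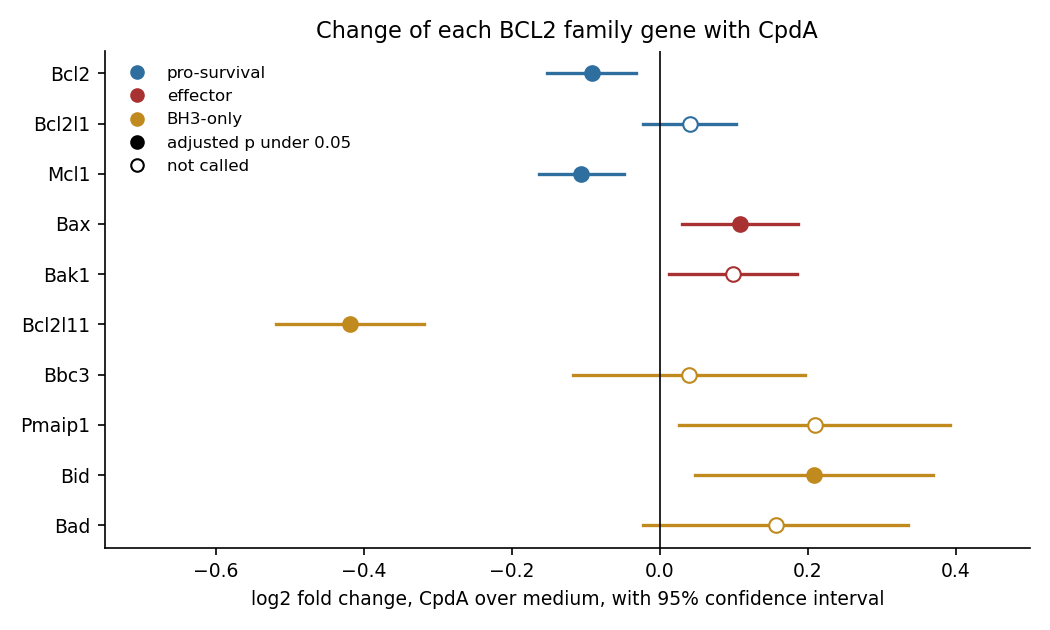
log2 fold change of CpdA over medium (x axis) for each member (y axis), with its 95% confidence interval from edgeR; colours give the role and filled points an adjusted p under 0.05. Bcl2l11 stands alone at -0.42, while every other member lies between -0.11 and 0.21.

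Of the 5 BH3-only members, 1 rose, 1 fell and 3 were not called. Bcl2l11 (chromosome 2, 128126038 to 128162547, plus strand) codes for BIM, which binds all pro-survival proteins of the family. It had 11.0, 10.8 and 10.9 FPKM in medium, from 1122, 1291 and 1253 counts. With CpdA it had 7.89, 8.50 and 8.21 FPKM, from 851, 1111 and 1042 counts. The medium libraries varied by 0.76% (coefficient of variation) and the CpdA libraries by 3.70%, and the gap between the groups was far wider than either spread. This was a log2 fold change of -0.42 ± 0.05 (SE, n = 3 per group, adjusted p = 7.44e-09, edgeR), with a 95% confidence interval of -0.52 to -0.32. Of all genes tested, 12.1% had a larger change in either direction. Over the 13 other settings tried, its log2 fold change ran from -0.45 to -0.39 and passed the threshold in each.

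The genes whose pattern over the 6 libraries lay nearest to that of Bcl2l11 were Ablim1, Sema6b and Ndrg2. Likeness was the root mean square distance between log2 CPM values centred on each gene's mean, and it was 0.010, 0.013 and 0.019. Their log2 fold changes were -0.42, -0.40 and -0.45, beside -0.42 for Bcl2l11.

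Bid (chromosome 6, 120891930 to 120916853, minus strand) codes for the protein that caspase-8 cuts to link death receptors to mitochondria. It had 6.91, 6.03 and 6.79 FPKM in medium and 7.64, 7.12 and 8.17 FPKM with CpdA, with no overlap. The log2 fold change was 0.21 ± 0.08 (SE, adjusted p = 0.0399, edgeR). This call rested on few counts (338 to 497 per library) and was the least stable of the 5. It was lost with medium replicate 2 left out (adjusted p = 0.204), or medium replicate 3 (0.0515), CpdA replicate 1 (0.0756) or CpdA replicate 3 (0.206), and with DESeq2 (adjusted p = 0.0942). Bid overlaps Bcl2l13 on the opposite strand over 913 bases, and the log2 fold change of Bcl2l13 was 0.10 (adjusted p = 0.0855). It also overlaps Gm44260 on its own strand over 2094 bases and the pseudogene Gm17812 on the opposite strand over 318 bases. Gm44260 and Gm17812 were not analysed here.

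Pmaip1 (chromosome 18, 66458604 to 66465550, plus strand) codes for NOXA, a BH3-only protein that binds MCL1. Its level was 6.10, 5.16 and 4.96 FPKM in medium and 5.37, 6.60 and 6.78 FPKM with CpdA. Medium replicate 1 and CpdA replicate 1 ran against the rest of their groups, so the groups overlapped. Its log2 fold change was 0.21 with a 95% confidence interval of 0.03 to 0.39 (adjusted p = 0.0731, edgeR). It was 0.30 and passed without medium replicate 1 (adjusted p = 0.0172) or without CpdA replicate 1 (0.0112).

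Bad (chromosome 19, 6941861 to 6951898, plus strand) codes for a protein that binds BCL2 and BCL-XL unless survival kinases phosphorylate it. It had 7.90, 8.83 and 9.71 FPKM in medium and 9.47, 10.4 and 9.87 FPKM with CpdA, with overlap through medium replicate 3. For Bad the log2 fold change was 0.16 with a 95% confidence interval of -0.02 to 0.34 (adjusted p = 0.183, edgeR), and without medium replicate 1 it was 0.09 (adjusted p = 0.543). Bad overlaps Gpr137 on the opposite strand over 620 bases, and Gpr137 had 351 to 484 counts per library against 232 to 390 for Bad. Bbc3 (chromosome 7, 16309616 to 16318205, plus strand) codes for PUMA, a target of p53. It had 9.75, 8.79 and 9.45 FPKM in medium and 9.76, 9.09 and 10.1 FPKM with CpdA, and the groups overlapped. For Bbc3 the log2 fold change was 0.04 with a 95% confidence interval of -0.12 to 0.20 (adjusted p = 0.745, edgeR), and it ran from -0.0022 to 0.08 with single libraries left out.

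Within a library, ratios of FPKM do not depend on the scaling between libraries, and they are given as a description without a test. The ratio of Bcl2l11 to Bcl2 was 0.232, 0.240 and 0.231 in medium and 0.183, 0.191 and 0.185 with CpdA. Although both genes fell, Bcl2l11 fell further, and the groups did not overlap. The ratio of Bax to Bcl2 was 2.46, 2.55 and 2.28 in medium and 2.90, 2.73 and 2.75 with CpdA. Here Bax stood higher against Bcl2 in all 3 CpdA libraries. The ratio of Bak1 to Mcl1, added to the ratios first planned, was 0.230, 0.240 and 0.233 in medium. With CpdA it was 0.287, 0.253 and 0.272. Both effector ratios divide a gene with higher CpdA libraries by a gene with lower ones, so their separation follows from the choice of pairs. No effector was set against Bcl2l1, the pro-survival member with no call.

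The 10 members together had 433.2 ± 5.6 FPKM in medium and 437.7 ± 1.5 FPKM with CpdA (SD, n = 3), and the groups overlapped. The pro-survival share of that sum was 57.6 ± 0.6% in medium and 55.2 ± 0.5% with CpdA, and the effector share was 32.9 ± 0.8% and 35.3 ± 0.7%. The BH3-only share was 9.48 ± 0.30% and 9.51 ± 0.31%. Within the BH3-only genes the makeup differed. Bcl2l11 made up 26.4%, 27.3% and 26% of their summed FPKM in medium and 19.7%, 20.4% and 19.0% with CpdA. Bid made up 16.6%, 15.2% and 16.3% and then 19.0%, 17.1% and 18.9%. The ratio of pro-survival to BH3-only FPKM was 6.03, 6.25 and 5.97 in medium and 5.96, 5.84 and 5.62 with CpdA, a narrow gap between groups.

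**Figure D3:**
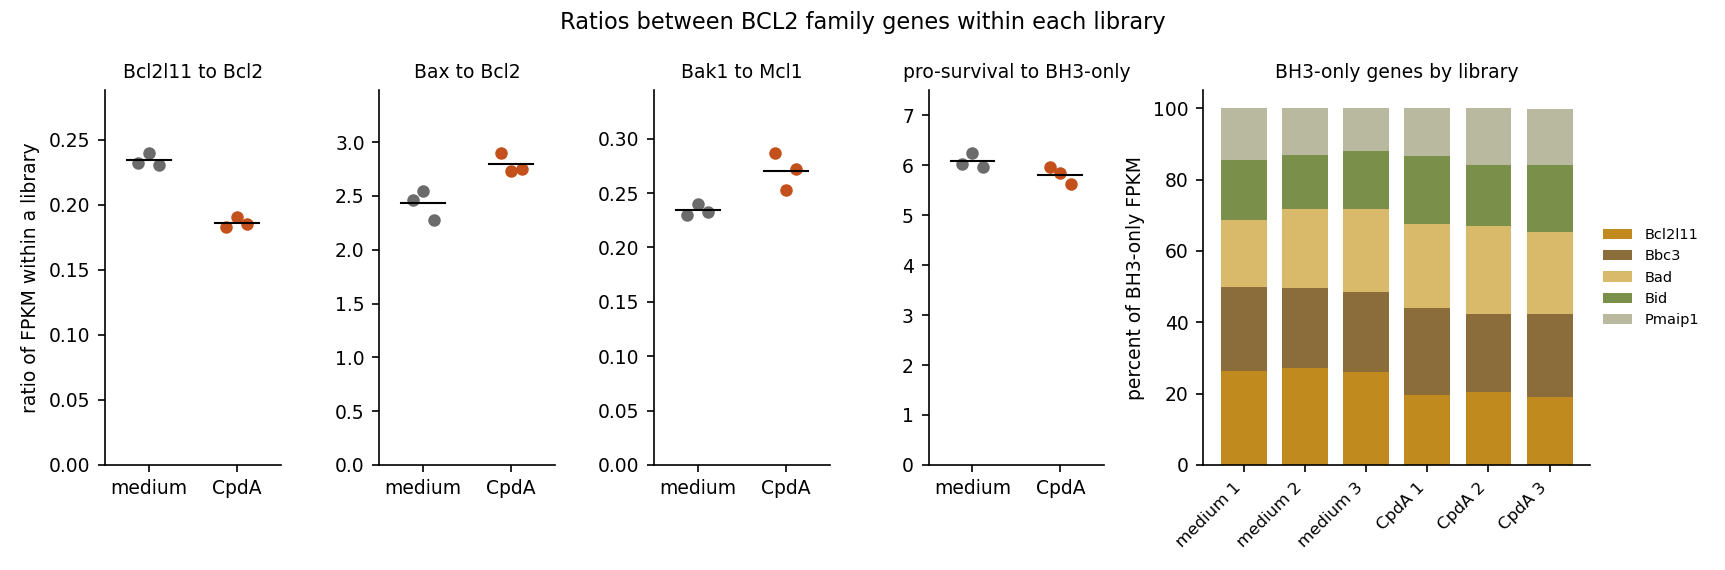
Ratios of FPKM within each library (y axes, from 0; black bars are group means) in medium and CpdA, and the percent of the summed BH3-only FPKM held by each BH3-only gene in each library (stacked bars). Bcl2l11 takes 26% to 27.3% of the stack in medium and 19.0% to 20.4% with CpdA.

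The sequences before 2 of the called members are shown because they hold motifs of factors known to act on these genes: a forkhead motif (TGTTTAC), the class bound by FOXO factors, before Bcl2l11, and an E-box (CACGTG), the class bound by MYC, before Bax. Each is the stretch of 250 bases that ends 1 base before a RefSeq start (GRCm38.p6), printed 5′ to 3′ on the gene's strand, with the motif or its reverse complement in capitals. That of Bcl2l11 is chr2:128125788-128126037 on the plus strand and that of Bax is chr7:45466899-45467148 on the minus strand.
Bcl2l11: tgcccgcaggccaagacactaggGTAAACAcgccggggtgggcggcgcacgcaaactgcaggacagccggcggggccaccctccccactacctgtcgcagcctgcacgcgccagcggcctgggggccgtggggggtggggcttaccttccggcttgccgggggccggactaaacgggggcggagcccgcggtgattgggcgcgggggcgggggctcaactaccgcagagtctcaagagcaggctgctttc
Bax: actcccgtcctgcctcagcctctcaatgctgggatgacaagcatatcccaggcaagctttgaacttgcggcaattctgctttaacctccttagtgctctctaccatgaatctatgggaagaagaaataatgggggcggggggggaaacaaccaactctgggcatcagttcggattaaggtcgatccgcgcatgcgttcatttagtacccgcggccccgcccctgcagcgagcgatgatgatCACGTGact
Both strands were searched in windows of 300 bases, which also take in the first bases of the gene, and which were at hand for 9 members (15 windows). The forkhead motif was in 1 of the 2 windows of Bcl2l11, the one printed, and in 1 of the 3 windows of Bbc3, and in 3.65% of all 32851 windows. The E-box was in the window of Bax, with a further match past the start that is not printed, and in 1 of the 3 windows of Bbc3, and in 7.15% of all windows. An ATF4 motif (TGATGNAA) and a CRE (TGACGTCA), which do not overlap these, were in 0 of the 15 windows, against 3.97% and 1.79% of all windows. A match describes the letters and not binding. The forkhead factor gene Foxo3 fell from 16.2 ± 0.1 to 13.4 ± 1.0 FPKM (SD, n = 3), and its log2 fold change was -0.27 (adjusted p = 1.43e-06, edgeR). Foxo1, another forkhead gene of T cells, had 34.7 and 34.9 FPKM (adjusted p = 0.974), and Myc rose by 0.11 on the log2 scale (adjusted p = 0.0136) with overlapping groups. Whether any of these factors had a part in the changes of Bcl2l11 or Bax was not tested.

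The rest of the mitochondrial and death receptor routes was read from 9 lists of 63 genes. Of these, 62 were in the table and 57 passed the filter on low counts. Of the 57, 13 rose, 15 fell and 29 were not called, with a median log2 fold change of 0.00, beside the 33.2% of all genes that were called. In the closest relatives, the pro-survival gene Bcl2l2 (BCL-W) fell from 12.02 ± 0.69 to 10.55 ± 0.58 FPKM, by 0.19 on the log2 scale (adjusted p = 0.00427). For Bcl2a1d the log2 fold change was 0.09 (adjusted p = 0.453) and for Bcl2a1b it was -0.28 (adjusted p = 0.517, from 16 to 36 counts per library). Both values moved with single libraries. Bcl2a1b was at -0.0036 without CpdA replicate 3, at -0.47 if CpdA replicate 2 was left out and at -0.13 if medium replicate 2 was. Bcl2a1d stayed above 0, at 0.05 without medium replicate 1 and 0.17 without medium replicate 2. The Bcl2a1 genes are near-identical copies whose reads may be divided between them. The BH3-only gene Bmf, which senses loss of attachment, had 0.958, 0.966 and 0.933 FPKM in medium and 0.654, 0.631 and 0.769 with CpdA. Bmf thus fell beside Bcl2l11, by 0.48 on the log2 scale (adjusted p = 0.0134), though without CpdA replicate 2 it missed the threshold (adjusted p = 0.0585). Bik (log2 fold change 0.23, adjusted p = 0.386) and the effector relative Bok (-0.14, adjusted p = 0.812) were not called. Bik was at 0.12 without medium replicate 3 and 0.37 without medium replicate 2, and Bok at 0.0043 without medium replicate 1, 0.01 without CpdA replicate 1 and -0.25 without CpdA replicate 2.

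Of 6 more distant relatives 4 fell and 0 rose. Bnip3l, which marks mitochondria for removal, fell from 144.6 ± 4.0 to 109.7 ± 6.1 FPKM, a log2 fold change of -0.41 (adjusted p = 2.7e-12). Its relative Bnip3 fell by 0.16 on the log2 scale and Bcl2l14 by 0.27. Bcl2l14 was not called without medium replicate 1 (adjusted p = 0.0716), without CpdA replicate 1 (0.163) or with DESeq2 (0.0529). Bnip3 and Bnip3l are also known as genes induced by hypoxia.

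Downstream of the pore, 2 of 9 genes of the apoptosome and caspases rose and 1 fell. Cycs, the cytochrome c gene, rose from 53.2 ± 1.7 to 60.6 ± 1.2 FPKM, a log2 fold change of 0.18 (adjusted p = 3.14e-05). Apaf1, the scaffold that cytochrome c binds, fell by 0.16 on the log2 scale and lost its call without CpdA replicate 1 (adjusted p = 0.0659). Of 8 genes for proteins released from mitochondria and inhibitors of apoptosis, 1 fell and 0 rose. That gene was Birc2, a ubiquitin ligase of tumour necrosis factor receptor signalling, at 21.2 ± 1.4 and 17.1 ± 0.4 FPKM (log2 fold change -0.32, adjusted p = 9.98e-07). Endog (-0.19, adjusted p = 0.123), Birc6 (-0.07, adjusted p = 0.0709) and the caspase inhibitor gene Xiap (-0.02, adjusted p = 0.741) were not called. Endog was at -0.12 without medium replicate 2 and Birc6 at -0.04 without CpdA replicate 1, while Birc6 passed without CpdA replicate 2 (-0.09, adjusted p = 0.0442). Xiap ran from -0.06 to 0.0025 with single libraries left out.

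On the death receptor route 3 of 9 genes rose and 1 fell. Casp8, whose product cuts BID, rose from 51.9 ± 1.4 to 57.6 ± 1.3 FPKM (log2 fold change 0.14, adjusted p = 0.0012), and Ripk1, a kinase of the same complexes, rose by 0.22. Cflar, whose product FLIP restrains caspase-8, fell from 43.1 ± 1.1 to 39.3 ± 1.8 FPKM (log2 fold change -0.14, adjusted p = 0.000577). The receptor gene Fas had 17.3 ± 0.7 and 18.2 ± 2.4 FPKM (log2 fold change 0.07, adjusted p = 0.501), and its log2 fold change was 0.04 without medium replicate 1, 0.16 without CpdA replicate 1 and -0.02 without CpdA replicate 2.

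**Figure D4:**
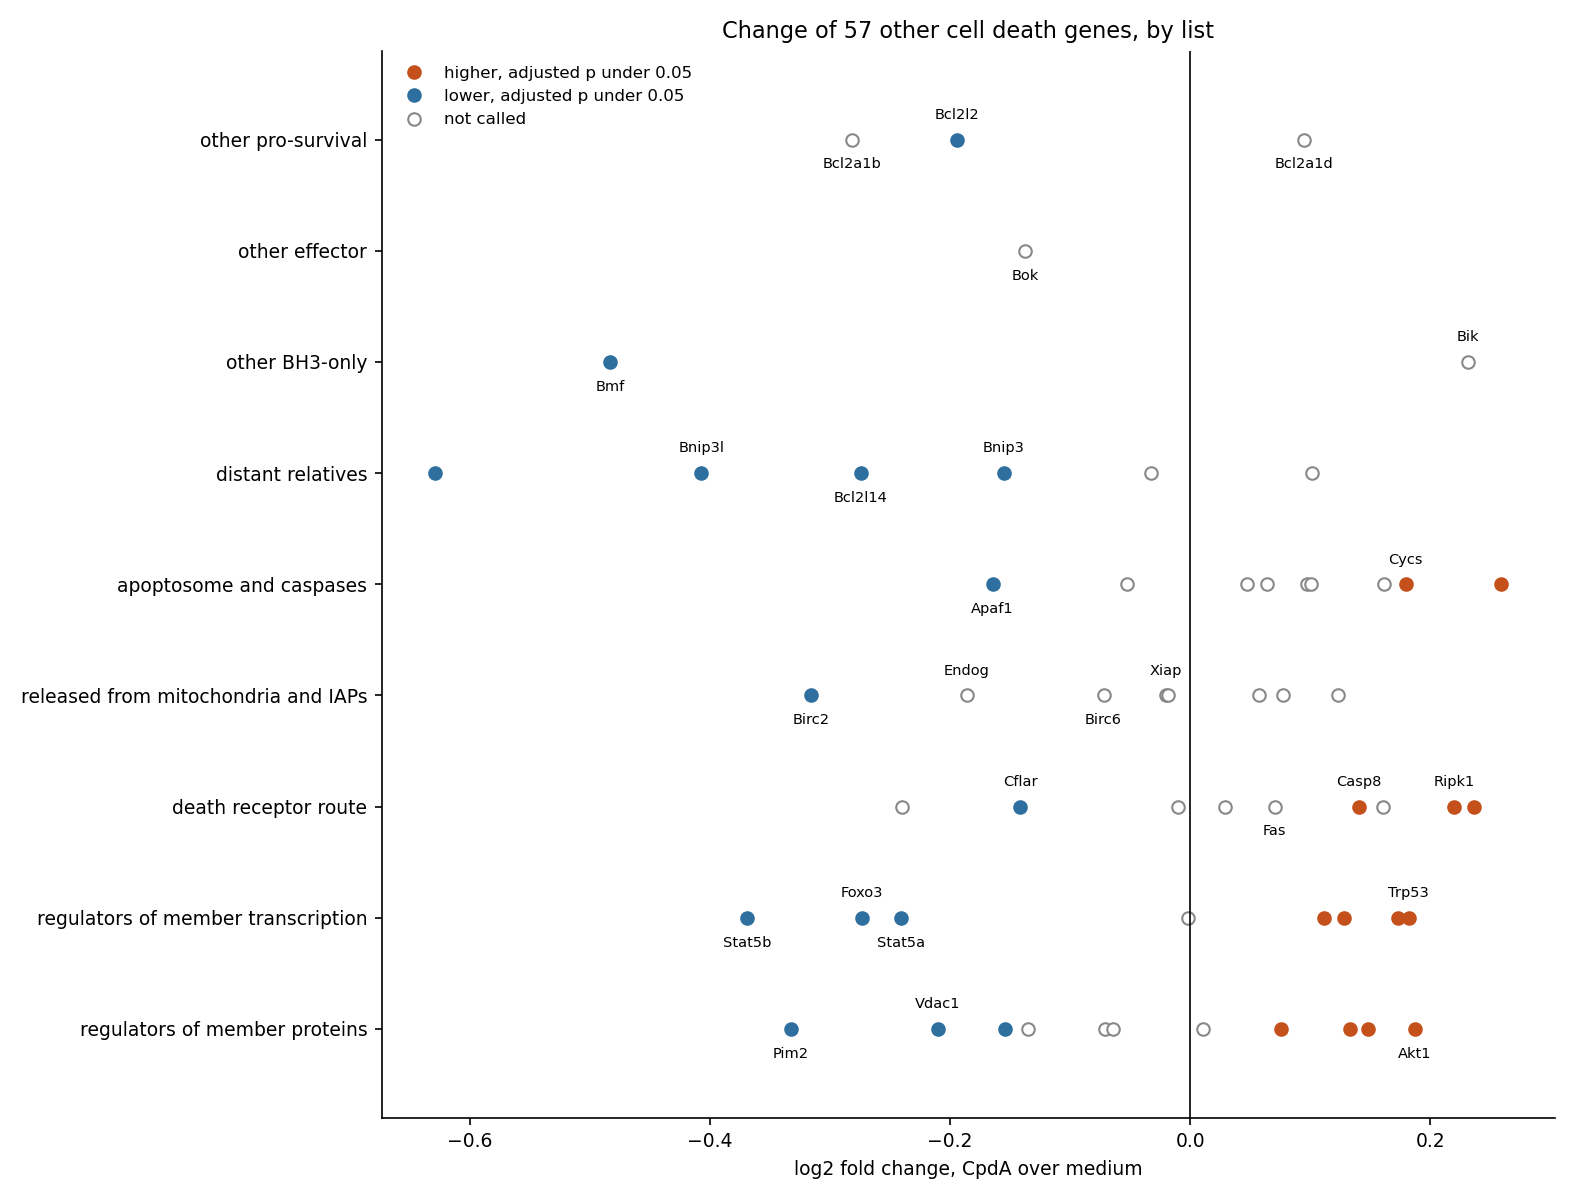
log2 fold change of CpdA over medium (x axis) for the 57 other cell death genes that were tested, 1 row of points per list (y axis); filled points passed an adjusted p of 0.05 and the names are those used in the text. The lists hold 13 higher and 15 lower genes, and the named ones at -0.32 or lower are Bmf, Bnip3l, Stat5b, Pim2 and Birc2.

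Among 8 tested regulators of the members' transcription 4 rose and 3 fell. Stat5b and Stat5a, which carry the IL-2 signal that sustains Bcl2 and Mcl1 in T cells, fell by 0.37 and 0.24 on the log2 scale. Stat5b went from 93.4 ± 1.2 to 72.8 ± 2.6 FPKM (adjusted p = 3.97e-13). Trp53, the p53 gene, rose from 42.4 ± 1.6 to 48.5 ± 3.5 FPKM (log2 fold change 0.18, adjusted p = 0.000543). Among 11 tested regulators of the members' proteins 4 rose and 3 fell. Pim2, a kinase gene of lymphocyte survival whose product phosphorylates BAD, fell from 175.6 ± 4.1 to 140.4 ± 2.4 FPKM (log2 fold change -0.33, adjusted p = 7.93e-12). Akt1, another kinase of BAD, rose by 0.19 (adjusted p = 4.93e-05). Vdac1, a channel of the outer mitochondrial membrane, fell by 0.21 on the log2 scale, while its relatives Vdac2 and Vdac3 rose by 0.13 and 0.15.

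**Figure D5:**
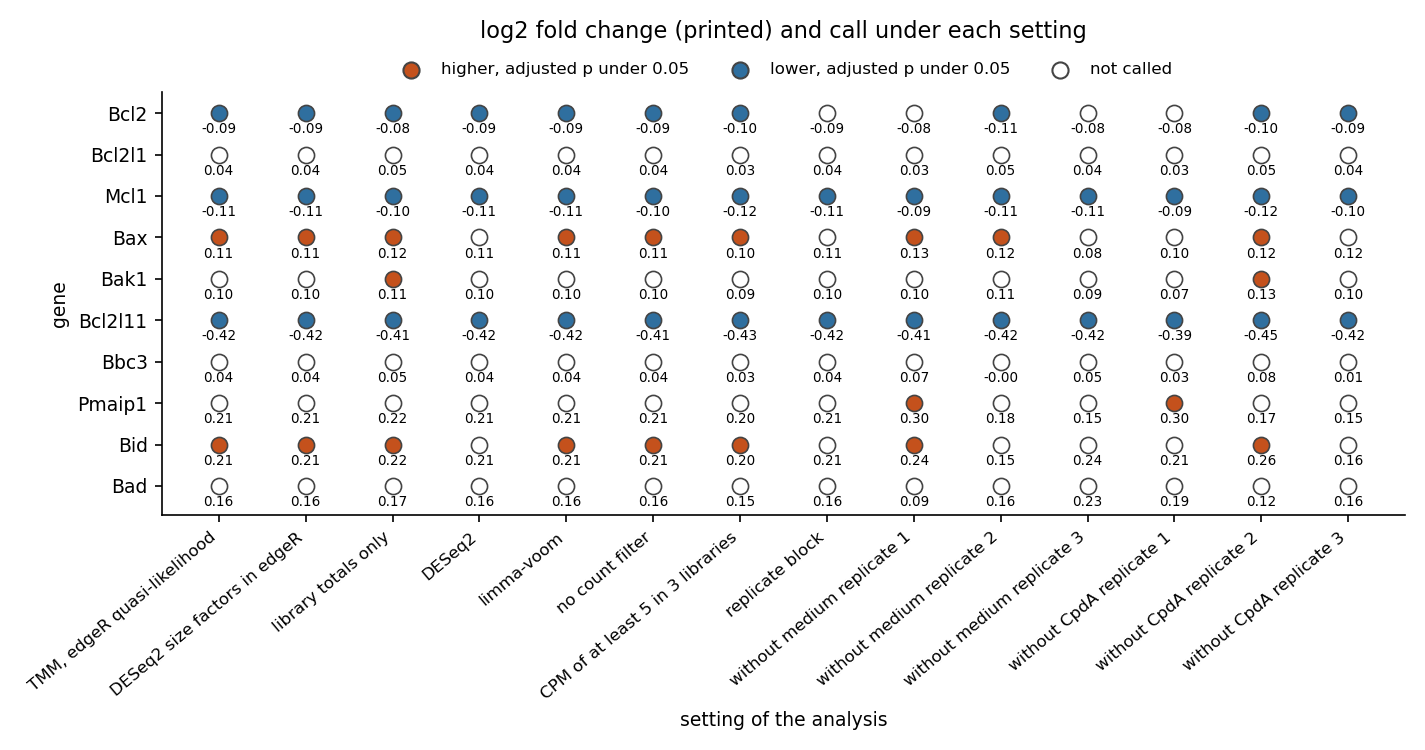
Log2 fold change (printed under each point) and call of each member (y axis) under the reported setting, at the left, and 13 alternatives (x axis). Bcl2l11 and Mcl1 are called lower in every column, while the calls of Bcl2, Bax and Bid come and go with single libraries.

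The plot of calls by setting shows which member changes depended on the choice of libraries or tool. Bcl2l11 and Mcl1 were called lower under all 13 alternatives, Bcl2 under 9, Bax higher under 8 and Bid higher under 7. Bak1 and Pmaip1 passed under 2 each. Bcl2l1, Bbc3 and Bad passed under none of the 13, with lowest adjusted p-values of 0.236, 0.51 and 0.0818.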

How the data were processed

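The members, gene lists and motifs were chosen with earlier results of these data known. The deposited table gives raw counts per gene and library and FPKM values, per the file headers. The deposited FPKM values equal the count divided by deposited gene length and library total, within a relative difference of 1.86e-07. CASAVA 1.8 and the builds GRCm38 and mm10 are named in the submitters' processing notes, with aligner, counter, annotation and strand setting not given in the sources used here. 0 columns of per-sample values went unmatched.

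Counts were tested in R 4.3.3 with edgeR 4.0.16 (TMM, robust quasi-likelihood test, no covariates) after filterByExpr (minimum count 10, minimum total 15), which kept 13507 genes. P-values were adjusted by Benjamini-Hochberg over all of them. Alternatives were DESeq2 size factors, library totals only, DESeq2 1.42.0, limma-voom (limma 3.58.1), no filter, a CPM of at least 5 in 3 libraries, the replicate number as a block, and each library left out in turn. At these depths a count of 0 allows up to 0.148 CPM (3 counts, counting error only). Sequences came from RefSeq (GRCm38.p6, 9 members matched) and GENCODE M21, translated with Biopython 1.88. Marker sums were compared with exact permutation tests (scipy 1.17.1).

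The named genes are all 10 members, the 3 genes nearest in pattern to the member with the smallest p, up to 3 genes with the smallest p from each list, and a set chosen by name (Bcl2a1b, Bmf, Bnip3l, Fas, Cflar, Foxo3, Xiap, Trp53). Bcl2l13, Foxo1, Myc, Vdac2 and Vdac3 lie outside that rule and were named after their values were seen. Some genes that the rule names, and some markers, are not reported here.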

Additional observations from a re-analysis of the deposited data

How the results depend on the processing

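The number of members called (5) was 2 with the replicate number as a block, 3 with DESeq2 and 2 to 6 with single libraries left out. Under the block Bcl2 (adjusted p = 0.0587), Bax (0.0605) and Bid (0.0507) were not called. Medium and CpdA libraries of the same number did not deviate together (correlations of -0.021, -0.015 and -0.001 over genes). Whether libraries of the same number share an animal or a batch is not labelled, and these correlations cannot decide it. The 4483 genes called over all genes stayed between 3648 and 4538 under the 13 alternatives, and the 28 other cell death genes between 21 and 29. Log2 fold changes near 0 changed sign for Bbc3 without medium replicate 2 (-0.0022), Bok without medium replicate 1 (0.0043) or CpdA replicate 1 (0.01), Fas without CpdA replicate 2 (-0.02), and Xiap without medium replicate 1 (0.0007) or CpdA replicate 1 (0.0025). With single libraries left out, Bok ran from -0.25 to 0.01, Fas from -0.02 to 0.16 and Xiap from -0.06 to 0.0025. None of these was called. Birc6 passed with the CPM filter (adjusted p = 0.0338) and without CpdA replicate 2 (0.0442). Where calls differed, the cause was not tested. Members with 232 to 497 counts per library (Bad, Bid, Pmaip1, Bbc3) had standard errors of 0.08 to 0.09, against 0.03 to 0.05 for the others, which limits what can be seen for them.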
